A study of Mus musculus with 74 samples.

Results

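The libraries described here follow mouse embryonic fibroblasts (MEFs) during forced conversion with the factor cocktail Brn4, Klf4, c-Myc and Sox2, called the BKM_Sox2 course. They are the 4 late libraries (days 12 and 18) and the 4 early libraries (days 4 and 8), all collected while doxycycline (Dox) was present, chosen by their labels: 8 of the 74 samples of the series. Each day had 2 libraries, and 16 cocktail-by-day groups (32 libraries) of the same table shared the estimate of the spread. For comparison, the BKM_Sox17 and BKM_FNV courses carried Sox17 or its engineered variant eSox17FNV in place of Sox2, with the same other 3 factors, medium and days. The remaining 8 of those 32 libraries are of the K_FNV course, which carried Klf4 and eSox17FNV and entered only the estimate of the spread.

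All cells carried a Sox2-GFP reporter and were transduced with the M2rtTA activator and Dox-inducible lentiviruses in serum-containing MEF medium. After 24 hours the medium was changed to serum-free neural stem cell (NSC) medium with N2, B27, 10 ng/mL bFGF and 10 ng/mL EGF, and that change set day 0. Dox at 1 µg/mL was given for 18 days, so early and late groups differ in time on Dox and not in its presence. In such bulk samples fewer cells of a type and less RNA per cell cannot be told apart, and the poly(A) libraries do not separate RNA of the delivered factors from that of the cells' own genes.

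Brn4 (gene Pou3f4), Klf4, c-Myc (gene Myc) and Sox2 are transcription factors. Sox2 and Brn4 bind DNA next to each other at enhancers of neural progenitors, Klf4 is active in epithelia and in pluripotent cells, and c-Myc drives growth and division. When fibroblasts are reprogrammed, an early gain of epithelial genes is a well-known step, and genes of matrix, inflammation and proliferation are those by which fibroblast cultures often vary.

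Values are the authors' normalized tag counts, on 1 scale for all libraries, with an unknown read depth. Levels can be compared between libraries but not between genes, since the counts are not given per length. The highest value, 78139, was held by exactly 10 genes in each of the 8 libraries, so genes at that value have no measurable difference above it. The 8 libraries also had the same median, 166, and sums of 17707014 to 17709370. Their values thus have nearly the same distribution, and a shift of all genes together could not be seen in them. A gene was called when its limma adjusted p was below 0.05 and its log2 fold change, taken on log2(value + 2), was at least 1 in size. "Rose" and "fell" are used for called genes, and fold changes are given ± SE. The labels do not say that replicates were separate cultures, so p-values measure the spread between these libraries. As each cocktail and day had its own mean, that is the spread between libraries of the same day. It does not include the spread between the 2 days of a group. Lists of 4 values give the 2 libraries of the earlier day before those of the later day.

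Replicates of a day correlated at 0.941 to 0.947 and libraries of different days at 0.885 to 0.942 on the log2 scale across genes, and 8 of 8 were closest to their own replicate. Against the labelled cell type, a reprogramming intermediate made from fibroblasts, the fibroblast and matrix list summed to 452334 to 635933 in late and 171092 to 300772 in early libraries, with 595489 to 622958 in MEFs. Such sums are weighted to the members with the largest counts, here including Thbs1 at the highest value in late libraries. They do not show that each member reached the MEF level. The neural progenitor list summed to 8784 to 9974 in late and 8933 to 9417 in early libraries. Both lay under the 10205 to 11040 of MEFs and far under the 242013 to 249919 of primary NSCs.

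The genes of the delivered factors were present throughout, and their RNA was lower late than early without passing the 2-fold threshold. Sox2 had 1130, 1349, 1707 and 1048 in late libraries, against 1821, 2609, 2151 and 3365 in early libraries, and was listed at 0 in both MEF libraries. Pou3f4 had 26505, 26505, 21719 and 10068 in late libraries, against 29410, 34130, 44404 and 44404 in early libraries. Both were lower in every late library than in any early one, and both had their highest day mean at day 8. The log2 differences were -0.91 ± 0.53 for Sox2 (adjusted p = 0.181) and -0.92 ± 0.19 for Pou3f4 (adjusted p = 0.000662), and the exact two-sided permutation test over the 8 libraries gave p = 0.0286 for each, the smallest that 70 orders allow. That test counts the 2 libraries of a day as independent, so its p does not measure the spread between days. The limma SE of Sox2 shares its spread with courses that did not receive Sox2. There its values were 9 to 29 (BKM_Sox17), 9 to 52 (BKM_FNV) and 0 to 50 (K_FNV). Its SE and adjusted p are thus not set by the BKM_Sox2 libraries alone.

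Klf4 had 12547, 12150, 8134 and 6162 in late libraries, against 10769, 12547, 18428 and 21719 in early libraries (log2 -0.71 ± 0.11, adjusted p = 3.4e-05, exact permutation p = 0.143). Its groups overlapped, and its highest day mean, like theirs, was at day 8. Myc had 7445, 7282, 7282 and 6067 in late libraries, against 9215, 9808, 8954 and 9477 in early libraries (log2 -0.42 ± 0.09, adjusted p = 0.00104, exact permutation p = 0.0286). Without BKM_Sox2 day 18 replicate 1, Pou3f4 passed the threshold at log2 -1.20. Without day 4 or day 12 it did so at -1.17 and -1.34, and Klf4 at -1.10 and -1.11.

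**Figure D1:**
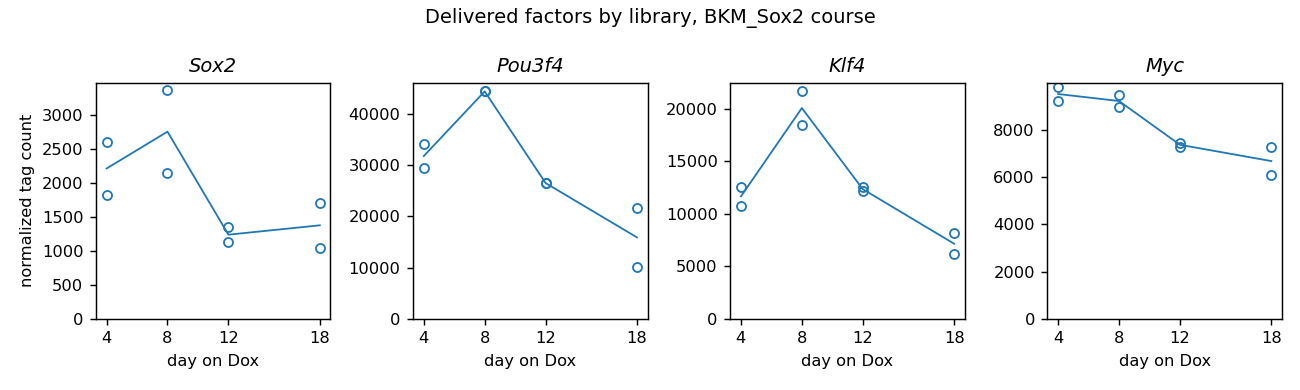
Normalized tag count of the genes of the 4 delivered factors against day on Dox in the BKM_Sox2 course, with 1 circle per library and a line through the mean of each day. Sox2, Pou3f4 and Klf4 have their highest day mean at day 8, and Sox2, Pou3f4 and Myc are lower in every late library (days 12 and 18) than in any early library (days 4 and 8).

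Over all 19728 genes tested, 2012 were called between late and early, which is 10.2%. Of these 1246 rose (6.32%) and 766 fell (3.88%), and the median log2 fold change of all genes tested was -0.07. Libraries of the late and early groups did not overlap for 2512 genes that were higher late (12.7%) and 2728 that were lower (13.8%). Among the genes that rose, 801 of 1246 had a higher mean at each successive day (64.3%, against 11.6% of all genes tested) and 1023 were highest at day 18. Among those that fell, 440 of 766 were lower at each successive day (57.4%, against 14.2% of all). These shares describe genes chosen for their change over the same days.

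Secreted inflammatory genes rose over the course. They encode chemokines, acute-phase proteins and matrix proteases that fibroblasts can release on stimulation. Of 22 tested members 15 rose and 0 fell, against 6.32% rising among all genes, and their median log2 change was 1.65. Lcn2, an iron-scavenging acute-phase protein, had 5289, 6160, 6370 and 8954 in late libraries, against 1, 0, 431 and 603 in early libraries (log2 7.54 ± 0.32, adjusted p = 8.02e-12). Each day's libraries lay above those of the day before. The size of the Lcn2 change depends in part on the added 2, since day 4 was listed at 1 and 0.

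Saa3, another acute-phase protein, had 897, 804, 2505 and 755 in late libraries, against 18, 0, 151 and 133 in early libraries (log2 5.17 ± 0.58, adjusted p = 9.71e-07). Hp, haptoglobin, which binds free haemoglobin, had 371, 168, 2035 and 946 in late libraries, against 0, 0, 48 and 41 in early libraries (log2 5.94 ± 0.64, adjusted p = 6.15e-07). The protease gene Mmp9 had 1755, 468, 451 and 1227 in late libraries, against 22, 18, 100 and 132 in early libraries (log2 4.02 ± 0.32, adjusted p = 1.75e-08). None of the 4 overlapped between groups. The sizes for Hp and Saa3 also depend in part on the added 2, since day 4 values were 0 and 0 for Hp and 18 and 0 for Saa3. The replicates of 1 day differed by more than 2-fold for Mmp9 and Hp at days 12 and 18 and for Saa3 at day 18.

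Chemokines rose with them. Ccl2, which attracts monocytes, had 6993, 5780, 4444 and 4388 in late libraries, against 417, 372, 2263 and 2376 in early libraries (log2 2.47 ± 0.16, adjusted p = 1.42e-09). Ccl7, a related monocyte chemokine, rose by log2 2.20 ± 0.19 and Cxcl12, the ligand of Cxcr4, by 1.64 ± 0.23. The stromelysin gene Mmp3 had 7284, 5008, 7645 and 8955 in late libraries, against 1260, 975, 1364 and 1679 in early libraries, a change of 2.45 ± 0.19 that lay mostly between days 8 and 12 (2.00 for that step). The list thus holds genes already moving by day 8 (Lcn2, Ccl2) and genes that moved later (Mmp3, Cxcl12).

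Ccl20 was listed at 0 and 0 at day 4 and had 664 to 840 in the other 6 libraries. Its call rests on day 4, since without that day the change was log2 0.22 (adjusted p = 0.0521). Of the members not called, Il6 had 959, 752, 987 and 920 in late libraries, against 331, 0, 651 and 719 in early libraries. That gave 2.76 ± 1.26 (adjusted p = 0.087), and it rose without BKM_Sox2 day 4 replicate 1 (4.61) and without day 8. Ccl5 had 5 to 11 in late and 1 to 17 in early libraries (log2 0.34 ± 0.51, adjusted p = 0.635). Of macrophage and blood genes, 0 of 9 tested members were called in either direction, when 10.2% of all genes were called, so a list of this size says little. It summed to 648 to 2142 in late and 785 to 1434 in early libraries, against 5294 to 5655 in MEFs.

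Genes of the receptors and targets of the IL-6 family, which signals through STAT3, rose as well. Of 10 members 7 rose and 0 fell, against 6.32% and 3.88% of all genes, with a median of 1.46. Osmr, the receptor for oncostatin M, had 5533, 3986, 8134 and 8534 in late libraries, against 542, 419, 1295 and 1013 in early libraries (log2 3.08 ± 0.15, adjusted p = 4.65e-11). Lifr, the receptor for LIF, rose by 1.72 ± 0.11 and Il6st, the shared gp130 subunit, by 1.46 ± 0.13. All 3 receptor chains were higher at each successive day mean. Bcl3, an NF-kB cofactor and STAT3 target, rose by 2.49 ± 0.20. The feedback inhibitor Socs3 rose too, with 1150, 781, 1074 and 1458 in late libraries, against 317, 290, 518 and 453 in early libraries. Pim1 and Junb, which are also immediate targets, peaked in between and were not called (log2 0.51 ± 0.20 and 0.70 ± 0.18), and both were called without day 8 (1.45 and 1.24).

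Interferon response genes rose too, most of them between days 4 and 8. Of 19 tested members 13 rose and 0 fell late against early, against 6.32% and 3.88% of all genes, with a median of 1.12. The list summed to 9803 to 12549 in late and 2267 to 8264 in early libraries. MEFs had 14260 to 14333, so the rise did not pass the level of the starting cells. In the single steps, 13 of 19 rose between days 4 and 8 (4.63% of all genes rose in that step), 2 rose from day 8 to day 12 (2.14% of all genes) and 1 from day 12 to day 18 (1.52%). Irf7, a transcription factor that amplifies interferon production, had 460, 478, 348 and 215 in late libraries, against 25, 5, 262 and 174 in early libraries (log2 2.73 ± 0.53, adjusted p = 0.000365). Oasl2, an antiviral protein, had 1621, 1567, 1064 and 908 in late libraries, against 140, 54, 826 and 617 in early libraries (log2 2.31 ± 0.39, adjusted p = 9.33e-05). Late values of Irf7 overlapped those of day 8, and both genes were highest at day 12. Isg15, a ubiquitin-like modifier, had 336, 519, 309 and 166 in late libraries, against 60, 15, 292 and 192 in early libraries (log2 1.81 ± 0.44, adjusted p = 0.00229).

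Psmb8, a subunit of the immunoproteasome, took another course and rose also between days 12 and 18. It had 31, 25, 62 and 60 in late libraries, against 7, 5, 14 and 8 in early libraries (log2 2.11 ± 0.21, adjusted p = 2.39e-07). Tap2, a peptide transporter for MHC class I, rose by 2.07 ± 0.18 and was the only called gene of the 8 tested in that list, when 10.2% of all genes were called. Without day 4 the number of interferon genes that rose was 3, with Irf7 at log2 0.74 (adjusted p = 0.469), Oasl2 at 0.81 (adjusted p = 0.24) and Isg15 at 0.37 (adjusted p = 0.699).

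**Figure D2:**
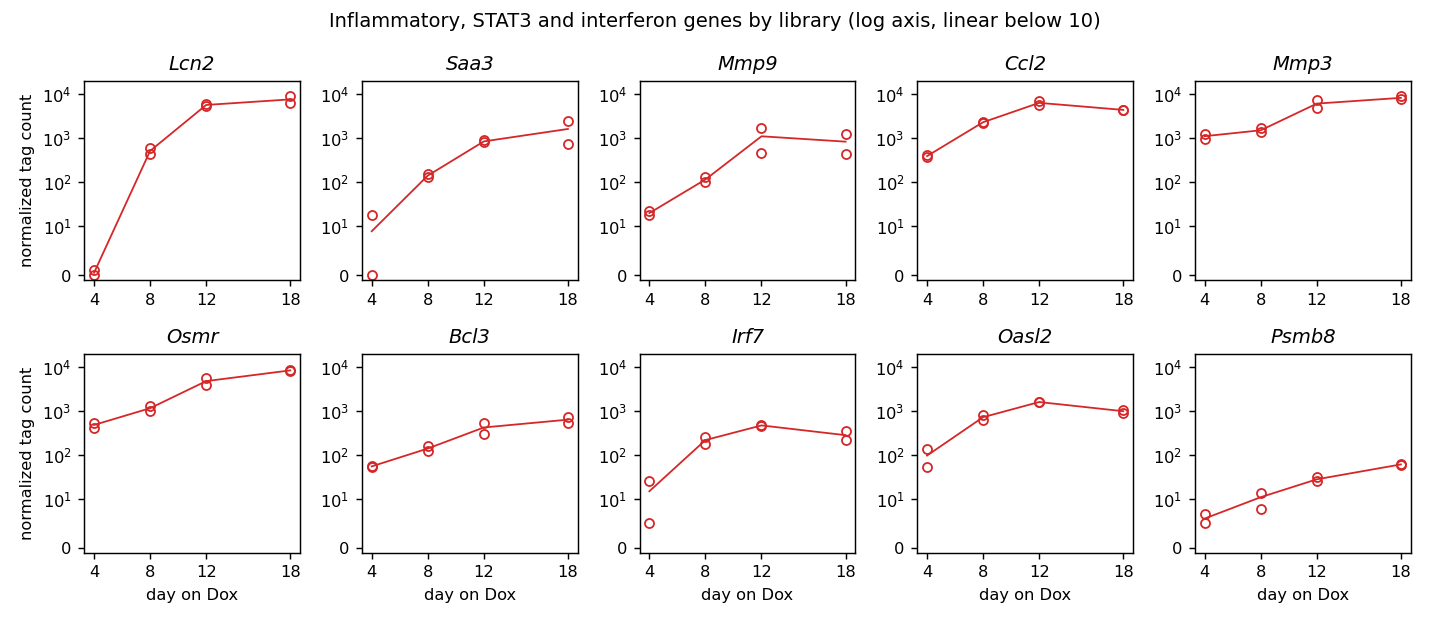
Normalized tag count, on an axis that is logarithmic above 10 and linear below, against day on Dox for 10 genes of the inflammatory, STAT3 and interferon lists in the BKM_Sox2 course. Circles are libraries and lines pass through the mean of each day. Lcn2, Osmr and Psmb8 climb to day 18, whereas Irf7 and Oasl2 are highest at day 12.

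Genes of fibroblast identity and extracellular matrix rose. Of 30 tested members 15 rose and 1 fell, against 6.32% and 3.88% of all genes, with a median of 1.17. Pdgfrb, a receptor for platelet-derived growth factor on mesenchymal cells, had 2878, 2578, 4577 and 5874 in late libraries, against 295, 196, 990 and 809 in early libraries (log2 3.01 ± 0.15, adjusted p = 6.57e-11), with 4503 and 4577 in MEFs. Dcn, the proteoglycan decorin, had 16288, 6752, 29407 and 23868 in late libraries, against 2288, 2013, 3739 and 2363 in early libraries (log2 2.72 ± 0.23, adjusted p = 2.84e-08), and 1432 and 1258 in MEFs. Pdgfrb thus ended near the MEF value and Dcn far above it.

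Lox, which cross-links collagen, rose by 2.54 ± 0.24, Thbs1, a matrix glycoprotein, by 2.41 ± 0.15 and Postn, periostin, by 2.38 ± 0.27. Thbs1 stood at the highest possible value, 78139, in all 4 late libraries, so its change may be understated. Among the largest increases of the whole table were Col15a1, a basement membrane collagen (6.05 ± 0.35), with 2317, 780, 3537 and 5007 in late libraries, against 14, 6, 212 and 59 in early libraries, and the extracellular tenascin gene Tnn (4.54 ± 0.70). Pdgfra, listed as a glial progenitor marker and also made by fibroblasts, rose by 2.68 ± 0.20. Of the collagen I genes, Col1a1 (0.94 ± 0.17) and Col1a2 (0.55 ± 0.13) were not called. Col1a1 did pass without BKM_Sox2 day 4 replicate 1 (1.09), day 8 replicate 1 (1.04), day 12 replicate 2 (1.15) or day 18 replicate 1 (1.15), and without day 8 (1.29).

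S100a4, a calcium-binding protein of motile fibroblasts, was the member that fell, with 1075, 1656, 457 and 327 in late libraries, against 1524, 1029, 2624 and 2463 in early libraries (log2 -1.31 ± 0.24, adjusted p = 0.00018). Its libraries overlapped, and the change was -0.80 without day 8 and -0.42 without day 18. Of 12 contractile genes 4 rose and 1 fell, against 6.32% and 3.88% of all genes. Without BKM_Sox2 day 18 replicate 2 only 2 rose, without day 4 only 1 and without day 18 only 2, and 0 fell in 6 of the 8 fits that left out 1 library. Ctgf and Cyr61, matricellular targets of the YAP and SRF factors, rose by 1.42 ± 0.14 and 1.49 ± 0.15, and by 0.53 and 0.74 without day 4. Acta2, smooth muscle actin, rose by 1.07 ± 0.22, was not called without day 4 (0.88), day 18 (0.80), day 4 replicate 2 (0.94) or day 18 replicate 2 (0.74), and at 2740 to 6752 stayed far under the 44402 of both MEF libraries.

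**Figure D3:**
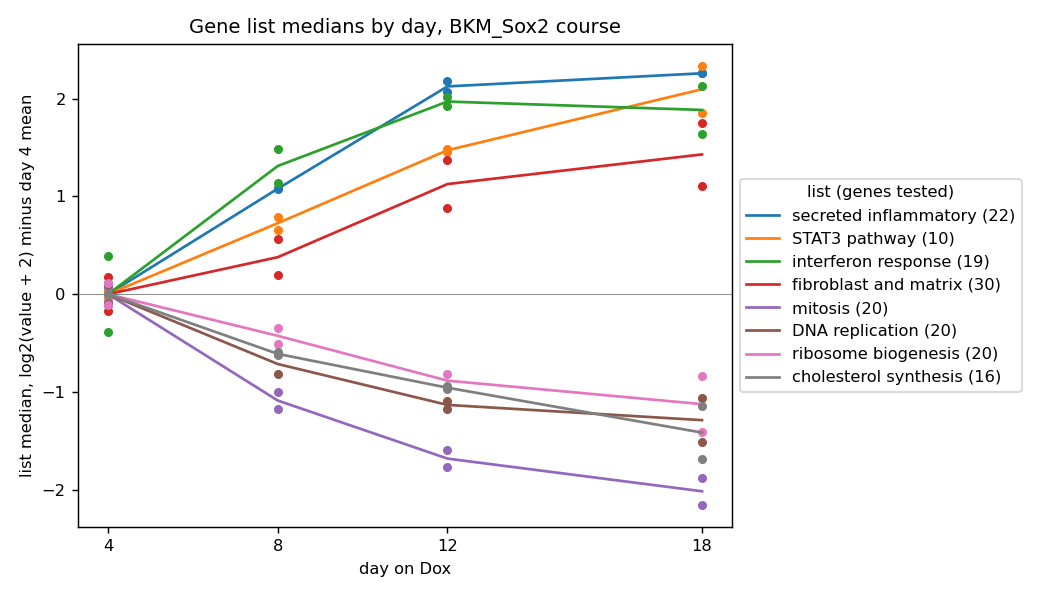
Median over the tested members of 8 gene lists of the log2(value + 2) of each library minus the day 4 mean of the gene, against day on Dox in the BKM_Sox2 course. Points are libraries and lines join the means of the days. Inflammatory, STAT3, interferon and matrix medians lie above 0 from day 8, and the other 4 lie below 0, with mitosis lowest.

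Genes of cell division fell. Of 20 mitosis genes 18 fell and 0 rose, against 3.88% falling among all genes, with a median of -1.29. Plk1, a kinase of mitotic entry and exit, had 220, 270, 156 and 92 in late libraries, against 1356, 1490, 426 and 635 in early libraries (log2 -2.32 ± 0.27, adjusted p = 1.35e-06). Cdc20, an activator of the anaphase-promoting complex, fell (log2 -1.86 ± 0.20), as did Aurkb, the kinase of the chromosomal passenger complex (-1.91 ± 0.19). Mki67, a marker of cycling cells, had 1220, 1194, 647 and 573 in late libraries, against 3961, 4444, 1720 and 1997 in early libraries (log2 -1.70 ± 0.11, adjusted p = 9.89e-10). None of these 4 overlapped between groups, and the late values lay under both MEF libraries (1679 and 1462 for Plk1).

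By step, 12 of 20 mitosis genes fell between days 4 and 8 (1.82% of all genes fell in that step). After that 1 fell between days 8 and 12 (0.801% of all genes) and 0 between days 12 and 18 (2.58%). Without day 4, 4 of 20 fell, and the list median by library in the plot of list medians was -1.77 and -1.60 at day 12 and -1.88 and -2.16 at day 18, relative to day 4. Bub1 and Nusap1, a checkpoint kinase and a spindle protein, were the members not called (-0.60 ± 0.06 and -0.72 ± 0.08). Of the cell cycle inhibitors, Cdkn1c, which holds cells in G1, rose by 1.15 ± 0.16. Of 16 genes in the list of inhibitors and p53 targets it was the only one called, when 10.2% of all genes were called. It was at 0.95 without BKM_Sox2 day 8 replicate 2, 0.96 without day 12 replicate 1 and 0.90 without day 18. Cdkn1a, the p53 target p21, had a change of -0.10 ± 0.06 (adjusted p = 0.213).

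DNA replication genes moved in the same direction with smaller changes. Of 20 members 5 fell and 0 rose, against 3.88% and 6.32% of all genes, but all 20 had a negative fold change (median -0.77). Mcm5, a subunit of the replicative helicase, had 522, 656, 623 and 337 in late libraries, against 1831, 2230, 855 and 1106 in early libraries (log2 -1.43 ± 0.16, adjusted p = 9.41e-07). Rrm2, which makes deoxynucleotides, fell (log2 -1.19 ± 0.13), as did Pcna, the sliding clamp (-1.15 ± 0.11). The number that fell was 0 without day 4, 15 without day 8 and 2 without day 18, and it was 8 and 2 without day 18 replicate 1 and replicate 2. Ribosome biogenesis genes did likewise, with 3 of 20 falling and 0 rising, against the same shares of all genes (median -0.79). The number that fell was 0 without day 4 and 7 without BKM_Sox2 day 18 replicate 1. Rrp9, a processing factor for ribosomal RNA, had -1.24 ± 0.16, whereas Npm1, nucleophosmin, had 16291 in all late and in both day 8 libraries (-0.11 ± 0.06, adjusted p = 0.152).

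Cholesterol synthesis genes, which the transcription factor SREBP2 controls together, also fell: 6 of 16 fell and 0 rose, against 3.88% and 6.32% of all genes, with a median of -0.87. Idi1, an isomerase in isoprenoid synthesis, had 4504, 4446, 4064 and 2654 in late libraries, against 11686, 12150, 6372 and 6878 in early libraries (log2 -1.21 ± 0.10, adjusted p = 2.09e-08). Mvk, mevalonate kinase, had 259, 171, 336 and 138 in late libraries, against 775, 759, 353 and 328 in early libraries (-1.25 ± 0.20), with an overlap at 1 late library. Insig1, a sensor of sterol, had -1.06 ± 0.09. Hmgcs1, a synthase of the pathway, was lower without passing 2-fold (-0.68 ± 0.06). Of this list 0 genes fell without day 4, 11 without day 8, 2 without day 18 and 2 without BKM_Sox2 day 18 replicate 2.

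Among single metabolic genes, Pkm, pyruvate kinase of glycolysis, had 29407, 29407, 16288 and 19766 in late libraries, against the highest value of 78139 in all 4 early libraries (log2 -1.77 ± 0.12, adjusted p = 3.19e-09). Its early level cannot be measured above that ceiling. Slc16a3, the lactate exporter, rose by 2.71 ± 0.27. They were the only called genes of 15 tested in the glycolysis list, in opposite directions, when 6.32% of all genes rose and 3.88% fell.

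Promoters of some of these genes are printed for orientation, since members of 4 lists moved together. Each is the RefSeq sequence (GRCm38.p6) from 250 bases before to 50 after the annotated start, on the strand of the gene, in lower case with motif matches in capitals. For each list the called member of largest change whose promoter held the motif is shown, so the matches chose the examples. Capitals mark a C/EBP letter pattern (TTNCNNAA) in Lcn2 (chr2:32387690-32387989, minus strand), overlapping interferon-response patterns (GAAA, any 2 bases, GAAA) in Isg15 (chr4:156200769-156201068, minus), a CCAAT box and a CHR pattern (TTTGAA) in Plk1 (chr7:122159185-122159484, plus), and CCAAT boxes in Mvk (chr5:114444019-114444318, plus).
Lcn2: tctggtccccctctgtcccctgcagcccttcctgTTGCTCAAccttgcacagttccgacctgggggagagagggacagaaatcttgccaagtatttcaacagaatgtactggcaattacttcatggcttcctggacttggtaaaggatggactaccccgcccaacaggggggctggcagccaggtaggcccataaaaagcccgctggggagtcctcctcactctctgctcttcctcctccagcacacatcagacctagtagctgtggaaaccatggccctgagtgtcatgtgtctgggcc
Isg15: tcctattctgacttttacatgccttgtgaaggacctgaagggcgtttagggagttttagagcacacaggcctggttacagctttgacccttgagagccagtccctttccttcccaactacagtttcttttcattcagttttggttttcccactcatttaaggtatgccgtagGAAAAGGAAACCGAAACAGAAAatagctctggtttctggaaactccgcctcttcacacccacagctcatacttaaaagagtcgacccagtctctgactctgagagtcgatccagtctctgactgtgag
Plk1: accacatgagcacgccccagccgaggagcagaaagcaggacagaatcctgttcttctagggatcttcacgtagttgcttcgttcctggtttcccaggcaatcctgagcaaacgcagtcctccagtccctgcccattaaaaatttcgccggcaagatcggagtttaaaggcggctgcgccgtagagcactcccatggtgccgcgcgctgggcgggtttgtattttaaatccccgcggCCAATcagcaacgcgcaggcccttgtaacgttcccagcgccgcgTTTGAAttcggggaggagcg
Mvk: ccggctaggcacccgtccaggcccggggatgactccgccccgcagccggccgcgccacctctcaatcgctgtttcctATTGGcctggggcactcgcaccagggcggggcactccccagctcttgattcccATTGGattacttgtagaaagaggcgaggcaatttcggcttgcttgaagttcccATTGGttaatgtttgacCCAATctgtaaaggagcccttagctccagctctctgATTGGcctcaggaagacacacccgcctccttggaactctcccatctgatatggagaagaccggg

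The letters were searched on both strands in the promoters of 14002 tested genes with an entry. CHR was in 10 of 15 mitosis promoters (66.7%), against 14.7% of all, and CCAAT in 13 of 15 (86.7%), against 38.8%. CCAAT was also in 9 of 10 cholesterol promoters (90.0%). The interferon pattern was in 8 of 15 interferon promoters (53.3%), against 3.30% of all, 7.06% of those of genes that rose and 1.97% of genes that fell. The C/EBP pattern was in 10 of 16 inflammatory promoters (62.5%), against 35.8%. An NF-kB pattern (GGG, any 2 bases, TTTCC) was in 3 of these 16 (18.8%, against 1.64%) and a sterol pattern (TCACNCCAC) in 1 of 10 cholesterol promoters (10.0%, against 1.10%). A STAT pattern (TTCNNNGAA) was in 0 of 16 inflammatory and 5 of 15 interferon promoters (33.3%, against 7.46%). Over all genes that fell, the shares were 18.2% for CHR (14.7% of all), 41.9% for CCAAT (38.8%) and 0.537% for the sterol pattern (1.10%). Over all genes that rose, they were 37.2% for C/EBP (35.8% of all), 2.98% for NF-kB (1.64%) and 9.16% for STAT (7.46%). These are counts of letters and not of bound sites.

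Epithelial genes mostly rose between days 4 and 8 and fell between days 12 and 18, so that few differed between late and early. Of 25 tested members 1 rose and 2 fell late against early (median -0.44), against 6.32% and 3.88% of all genes. Between days 4 and 8, 18 rose and 1 fell (4.63% and 1.82% of all genes). Between days 12 and 18, 0 rose and 18 fell (1.52% and 2.58% of all genes), and 10 fell without BKM_Sox2 day 12 replicate 2 and 11 without day 18 replicate 1. These steps share no library. Cdh1, E-cadherin, had 1505 and 1345 at day 4, 4240 and 3985 at day 8, 2653 and 2820 at day 12, and 874 and 1160 at day 18, with 2 and 0 in MEFs. Cldn7, a tight junction claudin, had 128 and 120, 666 and 594, 381 and 511, and 56 and 75 at the same days. Both peaked at day 8 and ended under their day 4 level.

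Cldn4, another claudin, was the member that rose late against early (1.08 ± 0.25). It had 617 and 412 at day 4, 4809 and 5008 at day 8, 4910 and 5587 at day 12, and 1694 and 2653 at day 18. Its change was -0.56 without day 4, 0.43 without day 12, and 0.94 and 0.92 without day 4 replicate 2 and day 18 replicate 2. Crb3, a polarity protein, fell (-1.62 ± 0.24), as did Cldn6, a claudin of embryonic epithelia, which had 1, 4, 0 and 1 in late libraries, against 43, 36, 9 and 8 in early libraries (-2.69 ± 0.31). The call of Crb3 ended without day 8 (-0.74) or day 18 (-0.24). Without day 4 or without day 12, 14 epithelial genes fell late against early, when 3.15% and 6.28% of all genes fell, among them Cdh1 (-1.31 and -1.26), Dsp, the desmosome protein desmoplakin (-1.92 and -1.61), and Krt8, a simple-epithelium keratin (-1.52 and -1.36).

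Genes of stratified epithelium and its cornified layer also rose and then fell. Of 23 tested members 17 rose and 0 fell between days 4 and 8 (4.63% and 1.82% of all genes). Between days 12 and 18, 0 rose and 15 fell (1.52% and 2.58% of all genes). Late against early 3 rose and 3 fell, against 6.32% and 3.88% of all genes. Lor, loricrin of the cornified envelope, had 606 and 312 at day 4, 2309 and 3295 at day 8, 640 and 927 at day 12, and 84 and 44 at day 18. Late against early it fell (log2 -2.32 ± 0.43), and it was not called without day 8 (-0.99) or day 18 (-0.51). Sfn, 14-3-3 sigma, fell (-1.17 ± 0.18) and was likewise not called without day 8 (-0.74) or day 18 (-0.21). Krt6a, a keratin of activated epidermis, had 912, 482, 790 and 841 in late libraries, against 46, 53, 656 and 736 in early libraries (log2 1.96 ± 0.22), and 0.08 without day 4. Among all genes tested, 221 rose between days 4 and 8 and fell between days 12 and 18, and 4 did the reverse.

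**Figure D4:**
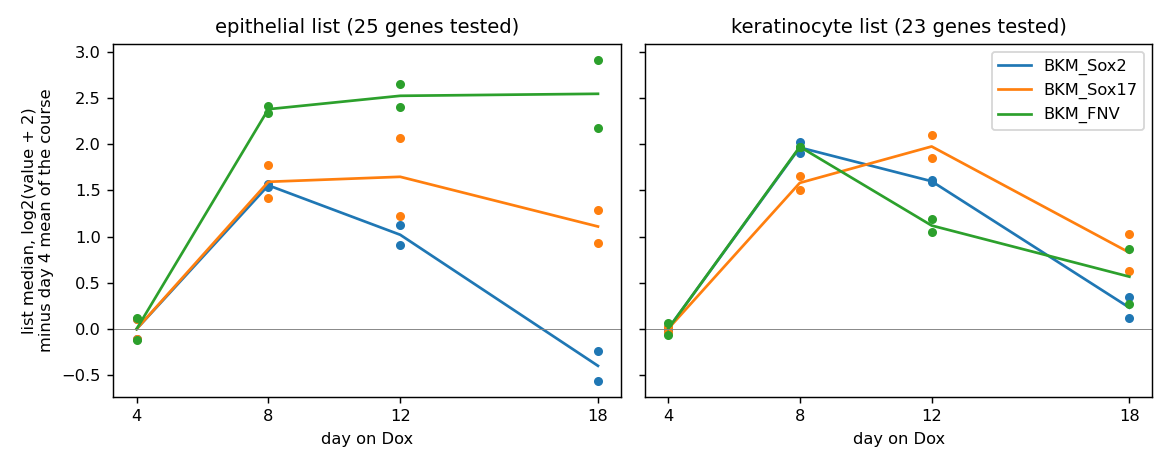
Median over the tested members of the epithelial list (left) and the keratinocyte list (right) of log2(value + 2) in each library minus the day 4 mean of its own course, against day on Dox, for the BKM_Sox2, BKM_Sox17 and BKM_FNV courses. Points are libraries and lines join day means. The epithelial median gained up to day 8 in all 3 courses, and only that of BKM_Sox2 was under its day 4 level at day 18.

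Of 18 tested neural progenitor genes 6 rose and 1 fell, against 6.32% and 3.88% of all genes (median 0.63). Without day 4 only 3 rose. Sox1, a factor of early neural plate, had 37, 51, 68 and 53 in late libraries, against 1, 1, 19 and 19 in early libraries (log2 2.74 ± 0.22, adjusted p = 1.34e-08), with 975 and 1125 in primary NSCs. Dll1, a Notch ligand, had 7, 9, 18 and 15 in late libraries, against 2, 0, 2 and 2 in early libraries (2.01 ± 0.29). Both were higher in every late library than in any early library and stayed far under the NSC values, which for Dll1 were 3595 and 4851.

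Prom1, a membrane protein of neural and epithelial stem cells, had 3436, 2940, 2042 and 2955 in late libraries, against 395, 330, 1432 and 1434 in early libraries (1.95 ± 0.17), while NSCs had 0 and 34. Without day 4 its change was 0.96 and 3 of the neural progenitor genes rose. Nes, nestin, was lower late without being called (-0.75 ± 0.16), with 682, 804, 493 and 764 in late libraries, against 1749, 1762, 776 and 698 in early libraries, and fell without day 8 (-1.38). Pax6, the paired factor of forebrain progenitors, had 12 to 25 in late and 0 to 26 in early libraries (0.88 ± 0.69, adjusted p = 0.334), and 1.83 without BKM_Sox2 day 4 replicate 2.

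Of 13 neuron genes 2 rose and 1 fell, against the same shares of all genes. Neurog2, a proneural factor, had 12, 10, 29 and 26 in late libraries, against 2, 2, 17 and 14 in early libraries (1.23 ± 0.26), and 0.16 without day 4 and 0.63 without day 18. Elavl3, an RNA-binding protein of neurons, had 8, 13, 35 and 10 in late libraries, against 1, 0, 7 and 5 in early libraries (1.87 ± 0.34). Without day 4 it was not called (1.02). Tubb3, neuronal tubulin that fibroblasts also make, fell (-1.01 ± 0.30), a call that ended without day 4 (-0.56) or day 12 (-0.93), and without day 4 replicate 2 (-0.97), day 8 replicate 1 (-0.96), day 12 replicate 1 (-0.99) or day 18 replicate 2 (-0.64).

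Of 23 tested pluripotency genes 3 rose and 3 fell, against 6.32% and 3.88% of all genes, and 0 fell without day 18. Nanog had 73, 80, 145 and 83 in late libraries, against 17, 0, 63 and 37 in early libraries (2.41 ± 0.45), 0.89 without day 4. Sall4, a zinc finger factor of stem cells, had 56, 72, 79 and 74 in late libraries, against 10, 12, 25 and 12 in early libraries (2.18 ± 0.33). Nanog in MEFs was at 74 and 82, close to the late level. Pou5f1, the gene of Oct4, had 1, 0, 1 and 1 in late libraries and was listed at 0 in all early libraries. Tdgf1, a co-receptor of Nodal, was at 16, 0, 0 and 0 in late libraries, against 22, 24, 23 and 28 in early libraries (-2.92 ± 0.80), and was not called without day 18 (-2.12, adjusted p = 0.114). Utf1, a chromatin factor of stem cells, had 20, 16, 2 and 1 in late libraries, against 18, 17, 58 and 30 in early libraries (-1.82 ± 0.40), and -0.55 without day 18.

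In the Wnt list, 3 of 13 rose and 1 fell, against 6.32% and 3.88% of all genes. Without BKM_Sox2 day 12 replicate 2, 6 rose, and without day 18 replicate 1, 5 rose. Sfrp1, a secreted Wnt inhibitor, rose by 2.15 ± 0.26. Dkk1, another Wnt inhibitor and itself a target, was listed at 0 in all 4 late libraries and had 39, 19, 13 and 23 in early libraries (adjusted p = 2.1e-05), for which no fold is given. Of the other lists, Notch had 3 of 12 rising and 0 falling, ERK feedback 3 of 14 and 0, BMP and Id 3 of 12 and 0, immediate early genes 3 and 1 of 11, glia 2 and 0 of 10, formative and primed genes 1 and 0 of 10, Hox 0 and 2 of 27, endothelial genes 0 and 1 of 10, endoderm and trophoblast genes 0 and 0 of 11, and skeletal muscle genes 0 and 0 of 3. These counts are small and several rest on single libraries or days: without BKM_Sox2 day 18 replicate 2 only 1 glia gene rose, over the fits that left out 1 library 1 to 4 Hox genes fell, and without day 4 the counts of rising BMP and Id genes and immediate early genes were 0.

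The largest decreases outside the lists included Itgb7, an integrin subunit. It had 158, 166, 45 and 28 in late libraries, against 1484, 1615, 394 and 372 in early libraries (-3.30 ± 0.28, adjusted p = 3.83e-08). Tlx2, a homeobox factor of the peripheral nervous system, had 33, 32, 6 and 4 in late libraries, against 239, 259, 99 and 79 in early libraries (-3.28 ± 0.26). Phlda2, an imprinted growth regulator, fell (-2.74 ± 0.29), as did Fzd10, a Wnt receptor (-2.72 ± 0.34), Gchfr, a regulator of tetrahydrobiopterin synthesis (-2.86 ± 0.26), and Nlrp6, an inflammasome sensor (-2.62 ± 0.25). All 6 were lower in every late library than in any early one, which was a condition for being picked and is no separate result.

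Some genes stood at 0 or 1 in at least 1 of the 32 libraries and at 50 or more in others, with no value from 2 to 49 in any. There were 924 such genes among 21241, of which 712 lay in the fifth of genes with the lowest GC content, 203 in the next and 9 in the other 3. They made up 2.83% of the genes called late against early and 4.03% of the genes tested, but 5 of the 12 largest increases and 4 of the 12 largest decreases picked by size. Il13ra2, a decoy receptor for IL-13, is an example with 0 and 0 at day 4 and 621 to 837 from day 8 (4.48 ± 0.10, and 0.33 without day 4). Tent5d, a poly(A) polymerase, had 1 in all late libraries, against 369, 538, 322 and 521 in early libraries. Such genes also led the single steps: they were 4 of the 4 largest increases from day 4 to day 8, 4 of 4 from day 8 to day 12, and 4 of the 4 largest decreases from day 12 to day 18. What sets these values was not tested, and of the genes described above Ccl20 and Il6 belong to this kind.

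The steps differed in number and direction of calls. Day 8 against day 4 had 1272 called genes (6.45%), of which 913 rose and 359 fell. Day 12 against day 8 had 581 (2.95%), with 423 and 158, and day 18 against day 12 had 808 (4.10%), with 300 and 508. Between day 18 and day 4, 3524 genes were called (17.9%), 1880 higher (9.53%) and 1644 lower (8.33%) at day 18. Among genes of the last step that were not of the all-or-nothing kind, Inmt, a methyltransferase, had 599 and 691 at day 18, against 38 and 46 at day 12 (3.88). Slpi, an inhibitor of leukocyte protease, had 164 and 83 at day 18, against 17 and 7 at day 12 (3.18), and the cartilage matrix gene Cilp had 96 and 136, against 29 and 4 (3.09). Counts of the middle step rested on single libraries: 239 rose without BKM_Sox2 day 8 replicate 2 and 274 without day 12 replicate 1, and 85 and 61 fell without the same libraries. In the last step 147 rose without BKM_Sox2 day 12 replicate 2.

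The change over the course was then compared with that of the 2 courses most like it, by testing the difference between the changes. Against the BKM_Sox17 course 468 genes differed (2.37%), with 225 changing more upwards and 243 more downwards in BKM_Sox2. Against the BKM_FNV course 1068 differed (5.41%), 522 and 546. Against BKM_Sox17 and BKM_FNV, 1 and 1 of 20 mitosis genes and 2 and 1 of 30 matrix genes were called. Of 20 DNA replication genes 2 and 5 were called more upwards and 0 and 0 more downwards against the same courses, of 20 ribosome biogenesis genes 0 and 5 more upwards, of 22 inflammatory genes 2 and 5 more upwards, and of 15 glycolysis genes 1 and 4 more downwards. Among all genes 1.14% were called more upwards and 1.23% more downwards against BKM_Sox17, and 2.65% and 2.77% against BKM_FNV. With all mapped libraries of the table in the fit, 9 of the 15 differences from BKM_Sox17 named here and below were not called (Epcam, Cdh1, Krt18, Sall4, Dkk1, Pou3f4, Mmp9, Pou5f1 and Lor), nor were 8 of the 21 from BKM_FNV (Cdh1, Dll1, Pou3f4, Lcn2, Ccl2, Mcm5, Rrm2 and Dcn). Lcn2 rose in all 3 courses, by 7.54 in BKM_Sox2, 6.50 in BKM_Sox17 and 5.34 in BKM_FNV, and differed from BKM_FNV (2.20 ± 0.45, adjusted p = 0.00206). As its BKM_Sox2 day 4 values were near 0, the size of that difference depends in part on the added 2. Ccl2 differed from BKM_FNV by 1.06 ± 0.23, and by 0.99 without BKM_Sox2 day 12 replicate 1. Mmp9 differed from BKM_Sox17 by 2.30 ± 0.46 (adjusted p = 0.00532).

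Epithelial genes changed more downwards in BKM_Sox2. Of 25 tested members 0 were called more upwards and 15 more downwards in BKM_Sox2 against BKM_Sox17 (1.14% and 1.23% of all genes), and 0 and 18 against BKM_FNV (2.65% and 2.77%). With all mapped libraries in the fit the 15 and 18 were 2 and 8, when 0.137% and 0.487% of all genes were called more downwards. The 23 genes of stratified epithelium and its cornified layer did not share this direction in both comparisons. Of them 1 was called more upwards and 5 more downwards against BKM_Sox17 (median difference -0.41). Against BKM_FNV the counts were 4 and 1 (median difference 0.12). Epcam, an epithelial adhesion molecule, had 174 to 309 in late and 114 to 405 in early BKM_Sox2 libraries, a change of 0.01 ± 0.25. It had 478 to 985 in late and 50 to 258 in early BKM_Sox17 libraries (2.53 ± 0.25), and 1953 to 3762 in late and 41 to 981 in early BKM_FNV libraries (3.62 ± 0.25). Differences were -2.51 ± 0.36 (adjusted p = 0.000403) and -3.61 ± 0.36 (adjusted p = 5.85e-06). Cldn6 differed by -3.56 ± 0.43 and -5.29 ± 0.43, Cldn7 by -2.25 ± 0.37 and -2.79 ± 0.37, Cdh1 by -1.37 ± 0.24 and -1.73 ± 0.24, and Krt18, a simple keratin, by -1.59 ± 0.40 and -3.61 ± 0.40 from BKM_Sox17 and BKM_FNV in that order. The Krt18 difference from BKM_Sox17 was not called without BKM_Sox2 day 8 replicate 2 (adjusted p = 0.0501) or day 12 replicate 1 (adjusted p = 0.053).

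Sox1, Neurog2 and Dll1 changed more upwards in BKM_Sox2. Of the 18 neural progenitor genes 3 were called more upwards and 0 more downwards against BKM_Sox17, and 4 and 1 against BKM_FNV, with 10 of 18 differences above 0 in each comparison. Of 13 neuron genes 1 and 4 were called more upwards and 0 and 0 more downwards. The shares of all genes called more upwards and more downwards were 1.14% and 1.23% against BKM_Sox17. Against BKM_FNV they were 2.65% and 2.77%. Sox1 had 37 to 68 in late and 1 to 19 in early BKM_Sox2 libraries, while it had 46 to 196 in late and 50 to 424 in early BKM_Sox17 libraries, and 29 to 151 in late and 40 to 317 in early BKM_FNV libraries. It rose in BKM_Sox2 to a level that overlapped those of the other courses, where it was high early. The differences in change were 3.54 ± 0.30 and 3.50 ± 0.30 (adjusted p = 1.86e-06 and 1.07e-06). Neurog2 differed by 3.31 ± 0.36 and 3.70 ± 0.36, and Dll1 by 3.21 ± 0.41 and 1.83 ± 0.41. The pluripotency gene Sall4 differed by 2.12 ± 0.46 and 3.18 ± 0.46. Of the 23 pluripotency genes 3 were called more upwards and 3 more downwards against BKM_Sox17, and 3 and 7 against BKM_FNV, beside the same shares of all genes.

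**Figure D5:**
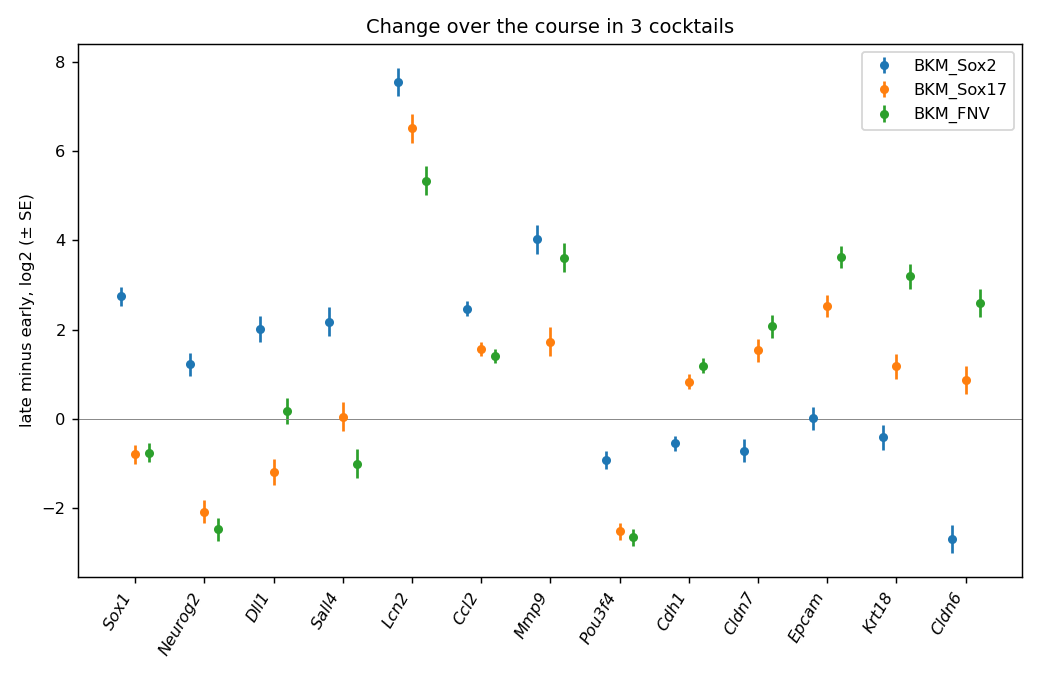
Log2 fold change late against early (± SE, limma) of the genes named on the axis in the BKM_Sox2, BKM_Sox17 and BKM_FNV courses, each from 4 late and 4 early libraries. Sox1, Neurog2, Dll1 and Sall4 lie above 1 in BKM_Sox2 and at 0.18 or lower in the other courses, and epithelial genes (Cdh1 to Cldn6) lie above 0 in BKM_Sox17 and BKM_FNV and at 0.01 or below in BKM_Sox2.

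Pou5f1 also differed between courses. It had 0 to 1 in late and 0 in early BKM_Sox2 libraries, 3 to 11 in late and 0 in early BKM_Sox17 libraries, and 687 to 1850 in late and 2 to 918 in early BKM_FNV libraries. The change differed from that of BKM_FNV (adjusted p = 0.000162), and the difference from BKM_Sox17 (adjusted p = 0.0432) rests on values of 11 or less and lost its call when any 1 of the 8 BKM_Sox2 libraries was left out (adjusted p up to 0.0919). Tdgf1 had 28 to 131 in late and 0 to 25 in early BKM_FNV libraries and differed by -5.56 ± 1.13. Dkk1 had 15 to 48 in late and 12 to 36 in early BKM_Sox17 libraries (adjusted p = 0.00297 for the difference) and 0 to 20 in late and 0 in early BKM_FNV libraries (adjusted p = 4.27e-05).

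The delivered factors changed to different degrees in the courses. Pou3f4 fell to 3800 to 10068 in late BKM_Sox17 libraries, against 34130 in all early ones, and to 2702 to 11686 in late BKM_FNV libraries, against 29410 to 34130 early, so that its decline was smaller in BKM_Sox2 by 1.59 ± 0.27 and 1.73 ± 0.27. Klf4 declined less in BKM_Sox2 than in BKM_FNV by 1.43 ± 0.15. How far the gene lists follow these levels was not tested. Among further genes, Pkm differed by -1.29 ± 0.17 and -1.64 ± 0.17, and Lor from BKM_Sox17 by -1.95 ± 0.61 (adjusted p = 0.0493), which was not called without 7 of the 8 single BKM_Sox2 libraries (adjusted p up to 0.115). From BKM_FNV, Mcm5 differed by 1.26 ± 0.23, Rrm2 by 1.43 ± 0.18, Tubb3 by 2.98 ± 0.42 and Dcn by 1.44 ± 0.32. Mcm5, Rrm2 and Tubb3 were lower late in both courses, by less in BKM_Sox2.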

How the data were processed

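RNA of 8 BKM_Sox2 libraries was compared between days, and their change with that of the BKM_Sox17 and BKM_FNV courses (16 libraries); 8 K_FNV libraries of the same table entered only the estimate of the spread. Per the submitters' processing notes, RSEM, Bowtie2 2.0 and mm10 were used, with no further order given. The deposited values are scores: the authors' normalized tag counts, rounded to whole numbers, with the same highest value in every library. Read depth is unknown, so no counting interval is given and a 0 is reported as listed at 0. Per the labels' protocols, libraries were made from poly(A) RNA.

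Values were taken as log2(value + 2) and fitted with limma 3.58.1 in R 4.3.3 (mean-variance trend), with 1 mean for each of 16 cocktail-by-day groups over 32 libraries. Genes with at least 10 in at least 2 libraries were tested (19728 of 21241). P-values were adjusted by Benjamini-Hochberg over all of them, and the scripts were tested on simulated data. For the 4 factor genes an exact permutation test over the 8 libraries was added. Of the columns, 1 matched no sample and was not used.

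Members and the 30 gene lists (498 genes, 456 of them tested) were chosen with earlier results of these data known. Named genes were the delivered factors, the largest changes in each comparison with a mean of 100 in a group (12 in each direction late against early, 4 per step, 5 per comparison of courses), and in each list up to 4 called members of largest change and 2 not called in list order. Genes picked by size late against early or in a step also had to show no overlap between the libraries compared. Other list members that are named were chosen after their values were seen. Promoter sequences come from RefSeq (GRCm38.p6), which matched 14002 genes tested. Alternatives covered the pseudocount, filter, scaling, libraries in the fit, replicate block, minimum fold, and leaving out each library or day. Some genes of these lists are counted but not reported by name here.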

Additional observations from a re-analysis of the deposited data

Results flagged for a closer look

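In 10 of 238 groups of 4 libraries a single library stood apart by Dixon's criterion at the 95% level. In late BKM_Sox2 libraries these were day 18 replicate 2 for Myc (6067), Acta2 (6752) and Bub1 (1089), day 18 replicate 1 for Saa3 (2505), day 12 replicate 1 for Tdgf1 (16) and Esrrb (1), and day 12 replicate 2 for Pou5f1 (0). In early libraries day 4 replicate 2 stood apart for Il6 (0), Col1a2 (12926) and Dll1 (0).

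The change over the BKM_Sox2 course differed from that of the BKM_Sox17 course for 468 genes and from that of BKM_FNV for 1068 by limma's test of the difference. Against BKM_Sox17 the log2 differences were -2.51 for Epcam, -3.56 for Cldn6, -2.25 for Cldn7, -1.37 for Cdh1, -1.59 for Krt18, -1.95 for Lor and -1.29 for Pkm. They were 3.54 for Sox1, 3.21 for Dll1, 3.31 for Neurog2, 2.12 for Sall4, 1.59 for Pou3f4 and 2.30 for Mmp9. Against BKM_FNV they were -3.61 for Epcam, -5.29 for Cldn6, -2.79 for Cldn7, -1.73 for Cdh1, -3.61 for Krt18, -1.64 for Pkm and -5.56 for Tdgf1. They were 3.50 for Sox1, 1.83 for Dll1, 3.70 for Neurog2, 3.18 for Sall4, 1.73 for Pou3f4, 1.43 for Klf4, 2.20 for Lcn2, 1.06 for Ccl2, 1.26 for Mcm5, 1.43 for Rrm2, 2.98 for Tubb3 and 1.44 for Dcn. Fitted differences of Dkk1 (-4.06 and -5.94) and Pou5f1 (-1.63 and -3.35) depend on the pseudocount, since a BKM_Sox2 group is listed at 0 throughout, and are no measure of size. The size for Lcn2 depends on it in part, since its BKM_Sox2 day 4 values were near 0.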

How the results depend on the processing

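With all mapped libraries in the fit, which adds later days and a day 24 library that stands apart, late against early had 632 genes higher and 373 lower, day 8 against day 4 had 268 and 59, day 12 against day 8 had 65 and 11, day 18 against day 12 had 43 and 118, day 18 against day 4 had 818 and 650, and the differences from BKM_Sox17 and BKM_FNV had 36 and 27 and 112 and 96. With no minimum fold the same counts were 3843 and 4815, 2151 and 2490, 1271 and 971, 1411 and 1433, 3948 and 4950, 923 and 1011, and 2168 and 1969, and Pou3f4 (-0.92), Klf4 (-0.71) and Myc (-0.42) were called. With 1 mean for late and 1 for early, 790 were higher and 390 lower. That fit takes in the spread between days, and 33 of 115 genes followed late against early were no longer called in it. With only the libraries compared, day 12 against day 8 had 148 and 55, and 167 were higher at day 18 than at day 12. Between days 8 and 4, 226 were lower with a pseudocount of 16 and 229 with cyclic loess. Late against early 1280, 1238 and 418 were lower without day 8, day 12 and day 18. Pou3f4 was at -1.17 and -1.34 and Klf4 at -1.10 and -1.11 without day 4 and day 12. Cldn4 reversed to -0.56 without day 4. The cause was not tested. Shares of higher calls that moved by over 10 points were 44.4% with no minimum fold late against early (61.9% otherwise), 46.3% and 82.0% (71.8%), 56.7% and 85.5% (72.8%), and 49.6% and 26.7% (37.1%) in the 3 steps with no minimum fold and with all mapped libraries.

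Leaving out single libraries gave 1135 to 1378 higher and 689 to 889 lower late against early, 239 to 490 and 61 to 173 for day 12 against day 8, 147 to 403 higher at day 18 than at day 12, and -1.20 to -0.64 for Pou3f4. Replicate numbers of different days did not deviate together (correlations -0.049 to 0.0133), so they share only a number. A replicate block gave 1245 higher and 766 lower and left the late against early call of 115 of 115 genes followed the same, and of the named differences from BKM_Sox17 it ended that of Lor (14 of 15 the same). Leaving out the all-or-nothing genes, chosen after seeing the data, gave 1219 and 749. Of the 115 genes 45 kept their call and direction under all alternatives. Of the named differences between courses 6 of 15 from BKM_Sox17 and 13 of 21 from BKM_FNV did so. Scaling moved the median of all genes by less than 0.1 except for day 18 against day 4, where it was 0 with median-ratio rescaling (2131 higher, 1331 lower), against -0.10 as deposited (1880 and 1644). Unknown depth limits what can be said of genes near 0.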

Other observations

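Complement and further acute-phase genes rose in the BKM_Sox2 course beside the inflammatory list. They were chosen after their values were seen and carry no independent weight. C3, the central complement component, had 5078, 3342, 5961 and 9479 in late libraries, against 278, 171, 1297 and 1150 in early libraries (log2 3.42, limma). C1ra and C1s1, the proteases of the classical pathway, rose by 3.84 and 3.82, and their inhibitor Serping1 by 4.37. Lbp, which binds lipopolysaccharide, rose by 4.39 and Rarres2, the attractant chemerin, by 4.26. The late and early libraries of these 6 genes did not overlap. C3 rose by less in BKM_Sox2 than in BKM_Sox17 (difference -1.55), while the C1ra difference was not called (-0.21, adjusted p = 0.618). Serping1 and Lbp rose by more in BKM_Sox2 than in BKM_FNV (differences 1.11 and 1.07, limma adjusted p = 0.0265 and 0.0116), and the other 4 were not called against BKM_FNV.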
